A study of Mus musculus with 9 samples.

Results

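The forkhead box (Fox) transcription factors were followed over 9 microarrays of a mouse glioma model and of normal brain cells. Members were the probes, control spots left out, whose gene name in the scanner files was Fox, a subfamily letter from a to s and a number, with or without a closing letter. This rule found 66 probes for 44 genes, among 34733 gene names on the array. Foxf1 carries the older name Foxf1a in those files. Fox proteins share a winged-helix DNA-binding domain, the forkhead box, and are grouped into lettered subfamilies by its sequence. Some are pioneer factors that open chromatin during development (FOXA), some pattern one region or tissue (FOXC and FOXF in mesenchyme), and others act in dividing cells (FOXM1), in ciliated cells (FOXJ1) or under insulin and growth factor signalling (FOXO).

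The 9 samples form 4 groups. Glioma tissue was brain tumour of mice of the MADM background (Mosaic Analysis with Double Markers, a system that makes sparse mutant cells in the animal) with EZH2 knocked-out (3 arrays); EZH2 is the enzyme of Polycomb repressive complex that methylates histone H3 lysine 27. MADM glioma cells (2 arrays) were glioma cells of brain tumour of the same background, for which the labels used here give no genotype. Tissue and glioma cells therefore differ in the label for EZH2 and in being a tumour or cells, which cannot be told apart. Astrocytes (2 arrays) and neural stem cells (2 arrays) were normal wild type cells of C57BL/6J mice. No age, and no promoter that deletes EZH2, is given in the labels used here. The labels number the replicates but do not say that they came from separate animals or cultures, so the p-values rest on the spread among the arrays of a group, which may be technical only.

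Levels are log2 intensities relative to the array's 75th percentile, so that 0 is the 75th percentile and 1 unit is a 2-fold change. They are read along 1 gene only, since probes of different genes differ in brightness. A probe counted as detected where the scanner software marked it well above background. The tissue arrays lay on 1 slide and the 6 cell arrays on another, with different versions of the extraction software, so slide, scan and version cannot be told apart from the difference between tissue and cells. Ezh2 itself read 1.91, 1.62 and 1.48 in tissue, 3.03 and 3.24 in glioma cells, 0.19 and -0.58 in astrocytes, and 2.14 and 3.38 in neural stem cells. Where its probe lies relative to the deleted part was not analysed here, so these values check nothing about the deletion. The mean of 10 oligodendrocyte precursor genes was 4.90 to 5.38 in tissue, 5.45 and 4.84 in glioma cells and 4.51 and 3.31 in neural stem cells, against -0.22 and -0.92 in astrocytes. The mean of 10 astrocyte genes was 4.31 and 3.22 in astrocytes, 2.35 to 3.55 in tissue, 3.03 and -0.03 in neural stem cells and -0.33 and -0.98 in glioma cells, so that tissue and astrocytes overlapped. The mean of 10 neural stem cell genes was 3.82 and 3.67 in neural stem cells and 0.27 to 2.79 on the other 7 arrays. The mean of 12 microglia and macrophage genes was 3.44 to 4.55 in tissue and also 3.27 and 3.77 in the astrocytes, against -3.85 and -3.48 in glioma cells and -0.39 and -2.09 in neural stem cells. In mixed material of this kind, fewer cells of a type and less RNA per cell cannot be told apart.

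Of the 44 genes, 21 were detected on all 9 arrays and 37 on every array of at least 1 group. By group, 29 were detected on every array of tissue, 32 on every array of glioma cells, 31 on every array of astrocytes and 28 on every array of neural stem cells. The remaining 7 genes (Foxa3, Foxb2, Foxe1, Foxi2, Foxl1, Foxn1 and Foxn4) were detected on 4 of 63 array values, with levels from -7.90 to -1.37, and were not tested. Foxq1 and Foxd3 passed this filter through tissue alone and were tested only in comparisons with tissue. Foxa3, Foxb2 and Foxn1 were detected on no array.

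The start regions of the family show a difference in base composition between members detected on all 9 arrays and the other members, and 5 of them are shown for that reason. RefSeq promoter windows (GRCm38.p6, 250 bases before to 50 after a transcript start) matched 28 of the 44 genes, with 33 windows. The dinucleotide CG, the site of DNA methylation in mammals, occurred a median of 22 times per Fox window against 7 over all 32851 windows. At least 20 were present in 17 of the 33 Fox windows (51.5%) against 26.5% of all windows. The 15 windows of the 13 genes detected on all 9 arrays held a median of 31 (5 to 59). The 18 windows of the 15 other genes held a median of 14 (3 to 27), so the ranges overlap. These other genes include some detected on most arrays, such as Foxa1 on every cell array. The same split was not made over all genes. Each sequence reads 5′ to 3′ along the gene's strand with every CG in capitals. Foxk2, Foxo1 and Foxc1 were detected on all 9 arrays, and Foxa1 and Foxd1 were not detected in tissue.
Foxk2, chr11:121259737-121260036, plus strand, 59 CG: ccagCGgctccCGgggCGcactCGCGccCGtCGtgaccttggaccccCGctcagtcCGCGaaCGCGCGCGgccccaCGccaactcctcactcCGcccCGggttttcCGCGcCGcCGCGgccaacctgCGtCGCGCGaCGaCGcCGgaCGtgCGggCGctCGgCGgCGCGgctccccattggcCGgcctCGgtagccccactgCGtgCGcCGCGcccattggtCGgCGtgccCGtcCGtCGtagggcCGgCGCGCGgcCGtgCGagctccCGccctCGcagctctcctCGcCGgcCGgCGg
Foxo1, chr3:52268087-52268386, plus strand, 31 CG: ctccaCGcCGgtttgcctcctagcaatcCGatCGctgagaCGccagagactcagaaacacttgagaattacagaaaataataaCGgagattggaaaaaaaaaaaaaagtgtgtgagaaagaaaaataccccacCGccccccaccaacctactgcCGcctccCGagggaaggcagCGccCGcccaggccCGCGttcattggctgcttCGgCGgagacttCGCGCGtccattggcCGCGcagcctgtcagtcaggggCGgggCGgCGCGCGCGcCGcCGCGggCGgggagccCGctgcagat
Foxc1, chr13:31806396-31806695, plus strand, 32 CG: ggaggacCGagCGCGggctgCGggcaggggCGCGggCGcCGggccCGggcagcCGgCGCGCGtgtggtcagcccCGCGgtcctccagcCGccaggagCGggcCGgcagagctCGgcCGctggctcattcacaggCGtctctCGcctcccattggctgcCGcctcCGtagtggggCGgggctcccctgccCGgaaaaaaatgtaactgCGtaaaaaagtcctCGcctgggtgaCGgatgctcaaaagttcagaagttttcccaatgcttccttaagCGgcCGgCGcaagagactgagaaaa
Foxa1, chr12:57546062-57546361, minus strand, 26 CG: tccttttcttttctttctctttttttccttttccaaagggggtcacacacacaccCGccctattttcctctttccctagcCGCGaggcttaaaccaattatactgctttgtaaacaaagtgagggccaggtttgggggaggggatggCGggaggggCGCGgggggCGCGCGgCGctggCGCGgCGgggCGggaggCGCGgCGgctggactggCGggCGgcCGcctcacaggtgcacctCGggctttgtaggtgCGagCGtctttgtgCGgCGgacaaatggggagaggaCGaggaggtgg
Foxd1, chr13:98353995-98354294, plus strand, 15 CG: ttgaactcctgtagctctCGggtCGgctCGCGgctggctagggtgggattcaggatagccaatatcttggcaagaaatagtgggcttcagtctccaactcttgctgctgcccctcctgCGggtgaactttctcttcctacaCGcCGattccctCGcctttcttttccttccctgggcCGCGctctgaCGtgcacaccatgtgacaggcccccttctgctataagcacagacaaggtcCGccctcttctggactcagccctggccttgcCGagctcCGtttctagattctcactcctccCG
The core forkhead motif TGTTTAC, searched on both strands, was found in 1 of the 33 windows (3.03%), that of Foxa1, and in 3.65% of all windows. A match in letters is a description, not a site of binding.

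Tests used limma on all genes with Benjamini-Hochberg adjustment, and a gene is called where it changes 2-fold or more with an adjusted p under 0.05. MADM glioma cells against astrocytes gave 7 calls among 35 Fox genes tested, against 19.0% of all genes called. Of these, 3 were higher (9.10% of all genes) and 4 lower (9.92%). Glioma cells against neural stem cells gave 2 calls, 1 higher (0.676% of all genes) and 1 lower (0.322%), where 0.997% of all genes were called. Neural stem cells against astrocytes gave 9 calls against 14.7% of all genes, 3 higher (6.80%) and 6 lower (7.89%). With values left unscaled that split was 0 higher and 6 lower. Tissue against glioma cells gave 6 calls among 37 tested against 16.9% of all genes, 1 higher (7.82%) and 5 lower (9.11%), and the split was 2 and 4 after quantile normalization. Tissue against neural stem cells gave 5 calls against 18.0%, 2 higher (8.08%) and 3 lower (9.89%), and the split was 3 and 1 with unscaled values. Tissue against astrocytes gave 11 calls against 23.0%, 4 higher (10.6%) and 7 lower (12.4%). Foxq1, which passed the filter through tissue alone, is among the higher calls in each of the 3 comparisons of tissue. The Fox share called ran from 5.71% to 29.7%, below that of all genes for tissue against glioma cells and against neural stem cells and above it in the 4 other comparisons, differences that were not tested. The 6 comparisons share groups and are not independent. Their 40 calls fell on 17 genes, and the levels and differences of 16 of them are plotted by array and by comparison. Groups of 2 or 3 arrays were often fully separate. This held for 69.2% of all genes in glioma cells against astrocytes, 46.1% in glioma cells against neural stem cells and 66.3% in neural stem cells against astrocytes. In tissue it held for 55.2% against glioma cells, 52.3% against neural stem cells and 58.0% against astrocytes. Removing 1 array at a time changed many calls, as given beside each gene; a group then holds 1 array and is assumed to vary like the others.

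Several other ways of processing ended some calls and reversed none of the 40. Unscaled values ended 9, among them Foxf1 in glioma cells against astrocytes, Foxk2, Foxn2 and Foxo6 in neural stem cells against astrocytes, Foxk2 and Foxp4 in tissue against glioma cells, Foxh1 in tissue against neural stem cells, and Foxn2 in tissue against astrocytes. Quantile normalization ended 3, among them Foxk2 and Foxp4 in tissue against glioma cells. Normexp background correction ended 8, among them Foxb1 in glioma cells against neural stem cells, Foxf1 and Foxc2 in neural stem cells against astrocytes, Foxa1 and Foxd1 in tissue against glioma cells, Foxh1 in tissue against neural stem cells, and Foxr2 in tissue against astrocytes. It also shrank differences from undetected groups, with Foxf1 at 5.87 in place of 9.73 for glioma cells against neural stem cells. The fold bounds given below therefore hold for the main processing only. Testing every gene with no filter on dim probes ended 8: Foxf1 and Foxo1 in glioma cells against astrocytes, Foxa2 and Foxk2 in neural stem cells against astrocytes, Foxd1, Foxk2 and Foxp4 in tissue against glioma cells, and Foxh1 in tissue against neural stem cells. A fit on other arrays ended 3, Foxp4 in tissue against glioma cells, Foxh1 in tissue against neural stem cells and Foxn2 in tissue against astrocytes, and the mean of a gene's probes ended that of Foxf1 in glioma cells against astrocytes.

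**Figure D1:**
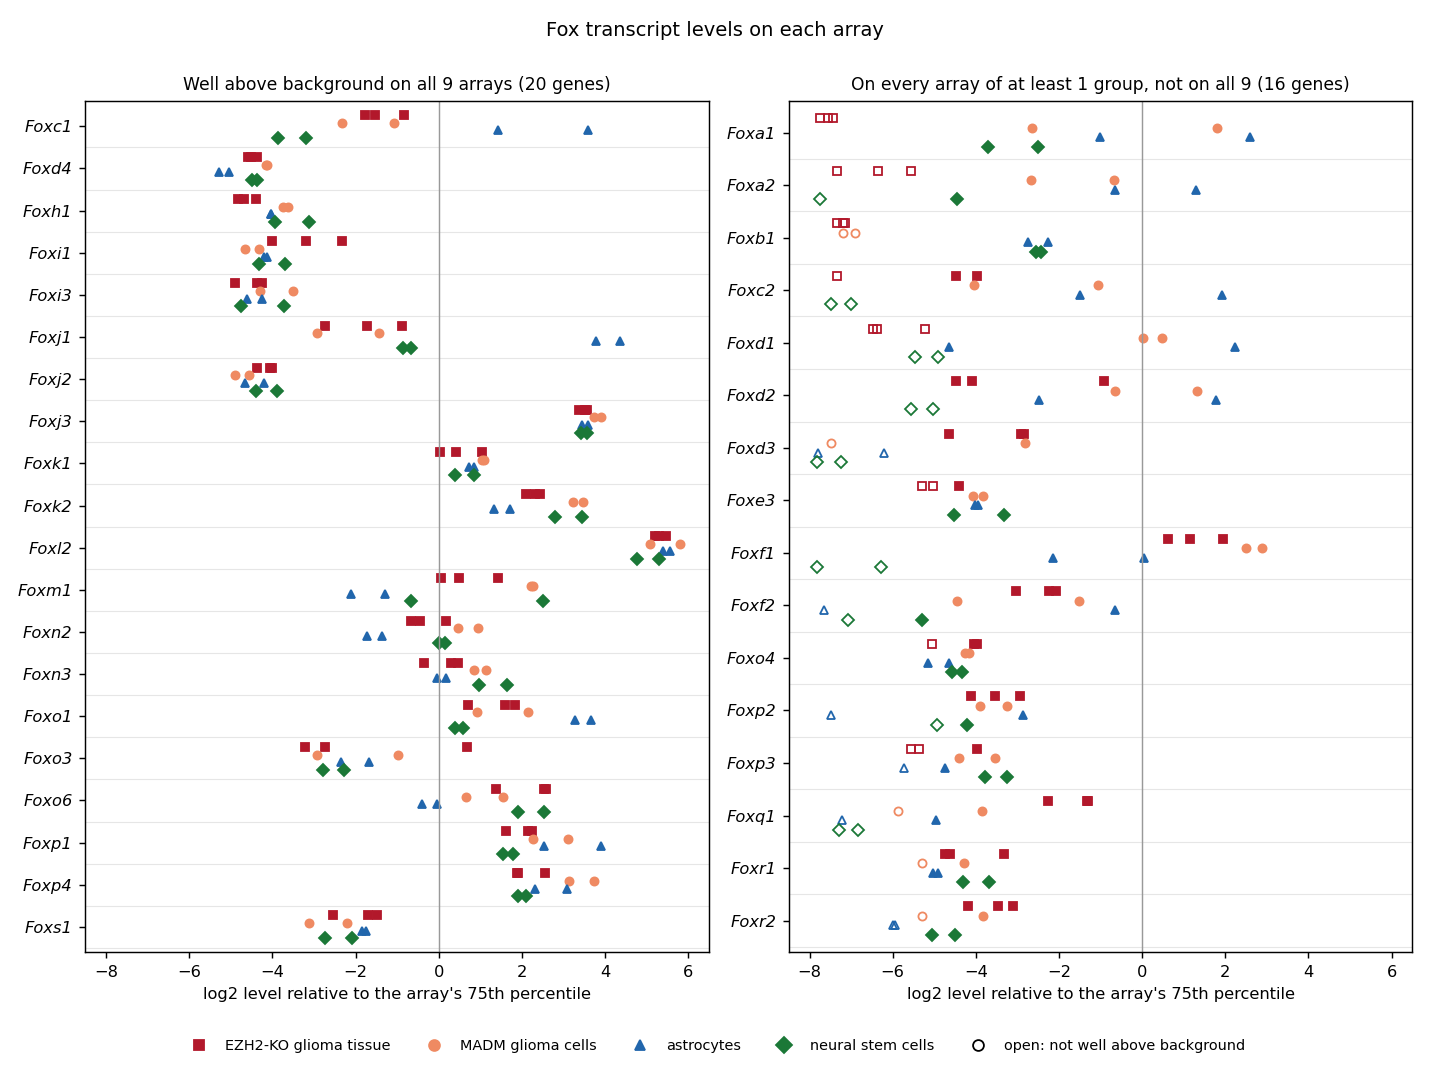
Level of 36 tested Fox genes on each array, as log2 intensity relative to the array's 75th percentile (x axis), with genes in rows and 1 point per array; open points were not well above background. The 20 genes on the left are detected on all 9 arrays, and on the right the 3 tissue points of Foxa1, Foxa2 and Foxd1 and the glioma and tissue points of Foxb1 are open.

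**Figure D2:**
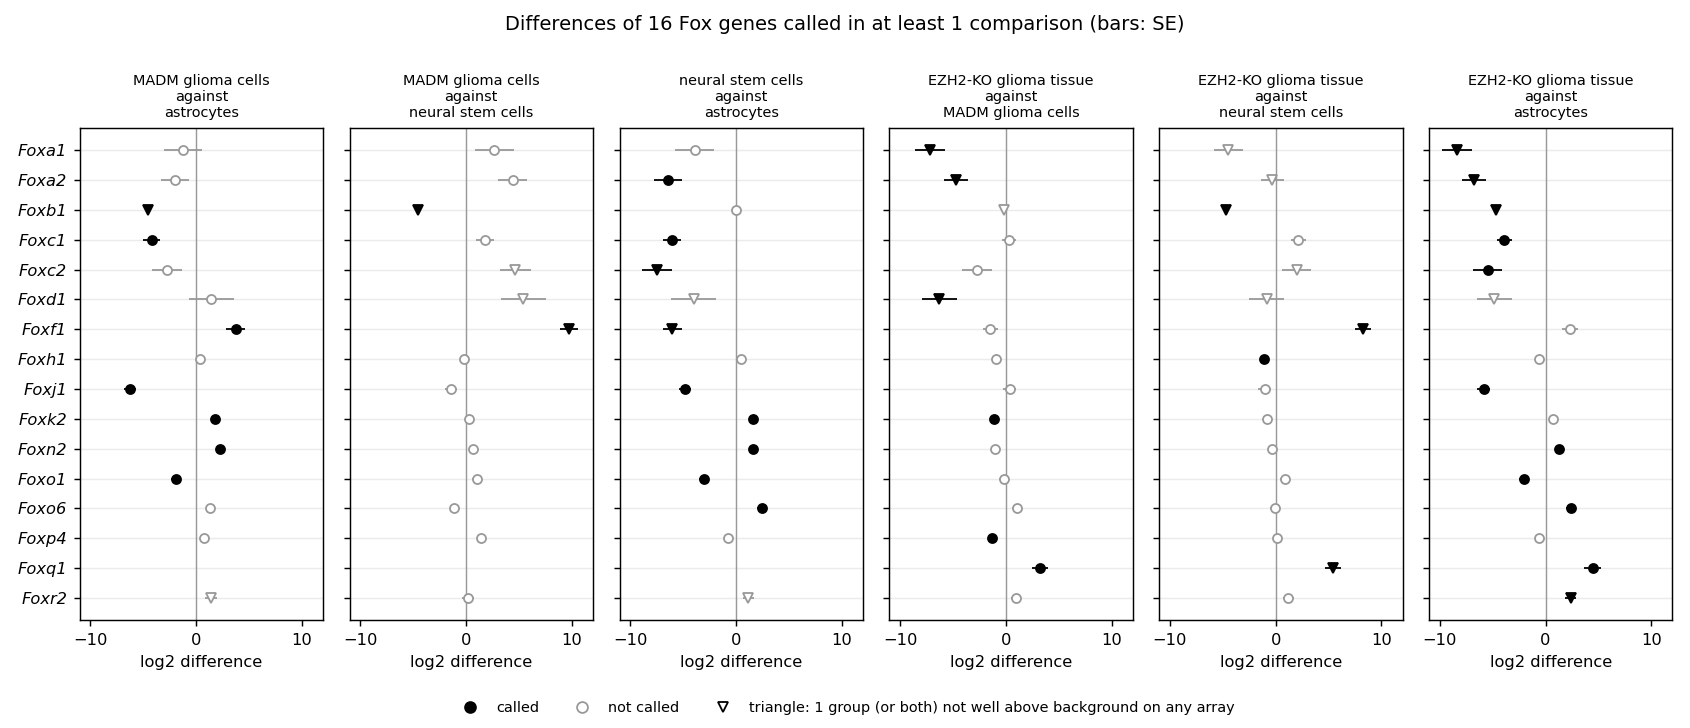
Log2 difference (x axis, bars are standard errors of the fit) of 16 called Fox genes in each of the 6 comparisons; filled symbols are called, and triangles mark comparisons in which no array of at least 1 group rose well above background, for which the text gives a bound. Foxj1 lies at -6.25, -4.83 and -5.85 in the 3 comparisons against astrocytes, and Foxf1 is filled on the right of 0 in 3 panels and on the left in neural stem cells against astrocytes.

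Foxf1 encodes a mesenchymal factor that acts downstream of hedgehog signalling in lung and gut. Its probe (chr8:123611944-123612003, mm9, the build the files name) read 2.88 and 2.49 in glioma cells, 0.62, 1.94 and 1.15 in tissue, and -2.15 and 0.05 in astrocytes. On the 2 neural stem cell arrays, at -7.82 and -6.28, it was not well above background. Foxf1 was thus high in both tumour groups and undetected in neural stem cells, with astrocytes between them. It was at least 255-fold higher in glioma cells than in neural stem cells (adjusted p = 0.0248; bound 213 to 305 with 1 array left out). That bound sets the mean of the detected group against the lowest signal detected on the other arrays, or the probe's own signal where higher. The call was lost without either glioma array or either array of neural stem cells (adjusted p up to 0.117). Tissue was at least 93.7-fold above neural stem cells (adjusted p = 0.000929; bound 73.4 to 116 with 1 array left out), and no array removed that call. Against astrocytes, glioma cells were higher by 3.73 ± 0.87 (log2, SE; adjusted p = 0.0419). Leaving out any array except astrocyte 2 ended that call (adjusted p up to 0.138). Neural stem cells were at least 19.2-fold below astrocytes (adjusted p = 0.0157; bound 8.96 to 41.3 with 1 array left out), and the call was lost without either array of neural stem cells (adjusted p up to 0.0557). A second Foxf1 probe gave smaller differences in the same directions, 3.97 in place of 9.73 for glioma cells against neural stem cells and 3.19 in place of 8.28 for tissue against neural stem cells. For neural stem cells against astrocytes it gave -1.14 in place of -6.00. That probe was dimmer, not well above background on either array of neural stem cells or on astrocyte 1, so the bounds above are those of the brighter probe only.

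Of 10 hedgehog pathway genes listed for Foxf1, none was higher and 4 were lower in glioma cells than in astrocytes, where 9.92% of all genes were lower (median -1.12 against 0.15 over all genes). The lower count ran from 1 to 3 with 1 array left out. Tissue against astrocytes gave 1 higher and 5 lower (10.6% and 12.4% of all genes; median -1.57; lower 3 to 5), and neural stem cells against astrocytes gave 1 lower (7.89% of all genes). Gli1, the transcription factor induced by the pathway, read 1.52 and 1.87 in astrocytes and -5.46 to -3.35 on the other 7 arrays. It fell by 6.11 ± 0.45 in glioma cells against astrocytes (log2, SE; adjusted p = 0.00292), a call kept without each array in turn, with 1 of 2 glioma arrays well above background. Against astrocytes, Gli1 was lower and Foxf1 higher in glioma cells, and also in tissue, where Foxf1 was not called. In neural stem cells both genes were lower than in astrocytes. The Foxf1 call in glioma cells was lost on leaving out most single arrays, as given above. The part of the pathway in the Foxf1 values was not tested. Smo, the pathway's transducer, was the gene with the smallest adjusted p for tissue against glioma cells and was not called (-0.98, adjusted p = 0.0593). It was called for tissue against neural stem cells, where 2 of 10 genes were lower against 9.89% of all genes (1 to 3 with 1 array left out).

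FOXC1 and FOXC2 act in mesoderm, meninges and vessels. Foxc1 (chr13:31902423-31902482) read 1.42 and 3.59 in astrocytes, -1.09 and -2.32 in glioma cells, -1.54, -0.83 and -1.76 in tissue, and -3.19 and -3.87 in neural stem cells. Astrocytes were highest and no other group overlapped them. In glioma cells against astrocytes it fell by 4.21 ± 0.83 (log2, SE; adjusted p = 0.0277), a call lost without any array except astrocyte 1 (adjusted p up to 0.108). In neural stem cells it fell by 6.03 ± 0.83 (adjusted p = 0.0141; lost on leaving out neural stem cells 2, adjusted p = 0.0786), and in tissue it fell by 3.88 ± 0.68 (adjusted p = 0.00766; kept without each array).
Foxc2 (chr8:123642693-123642752) read -1.49 and 1.93 in astrocytes, -1.06 and -4.05 in glioma cells, and -4.47, -3.98 and -7.35 in tissue, the last not well above background. Both neural stem cell arrays, at -7.48 and -7.00, were not well above background. Neural stem cells were at least 46.3-fold below astrocytes (adjusted p = 0.0304; bound 14.1 to 151 with 1 array left out), a call lost without astrocyte 2 or either array of neural stem cells (adjusted p up to 0.119). Tissue, with 2 of its 3 arrays detected, differed from astrocytes by -5.48 ± 1.39 (adjusted p = 0.0273). That call was lost without tissue 1, tissue 3 or astrocyte 2 (adjusted p up to 0.156).

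The 2 astrocyte arrays differed from each other on several Fox genes, chosen here after their values were seen. Astrocyte 2 was above astrocyte 1 for Foxc1 and Foxc2, for Foxd1 (2.23 against -4.64) and for Foxd2 (1.79 against -2.48). It was also above it for Foxf2, where astrocyte 1 was not detected (-0.66 against -7.66), and for Foxa1 (2.60 against -1.01) and Foxa2 (1.30 against -0.66). Foxs1, known in pericytes, read -1.84 and -1.76 on them. The mean of 8 fibroblast and meninges genes was 4.74 on astrocyte 2 and 0.23 on astrocyte 1, and -4.66 to -0.48 on the other 7 arrays. Of that list, 3 genes were lower in glioma cells than in astrocytes (9.92% of all genes; 1 to 4 with 1 array left out), 1 was lower in neural stem cells (7.89%; 1 to 3) and 2 were lower in tissue (12.4%; 1 to 6). The part of such cells in these Fox values was not tested.

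Foxf2, a mesenchymal and pericyte factor, read -2.25, -2.08 and -3.04 in tissue, -1.51 and -4.45 in glioma cells, and -5.30 and -7.07 in neural stem cells, the last not detected. It was called in no comparison. The mean of 7 pericyte and smooth muscle genes was -0.38 to 0.12 in tissue and -3.76 to -0.13 on the cell arrays. The 7 include Cspg4, also an oligodendrocyte precursor gene, which was their highest member in tissue (4.51 to 5.37) and in glioma cells (5.90 and 4.84). Only 4 of the 7 passed the filter without tissue, so the filter favoured tissue in this mean. Astrocyte 2, at -0.13, lay within the tissue range. Foxq1, a member of the same gene cluster that is known in epithelial and endothelial cells, read -1.32, -1.31 and -2.26 in tissue (chr13:31652206-31652265). In glioma cells it read -3.86 and, undetected, -5.87, and in astrocytes -7.22, undetected, and -4.96, detected. Both neural stem cell arrays were undetected, at -7.30 and -6.82. Tissue was the only group with Foxq1 detected on every array, and Foxq1 was tested because of tissue, the group where it was high. Its differences were thus favoured by the filter, and the adjusted p with every gene tested and no filter is given beside each. Tissue was above glioma cells by 3.24 ± 0.79 (log2, SE; adjusted p = 0.0312, and 0.0427 with no filter), a call lost without tissue 1, tissue 2 or glioma 2 (adjusted p up to 0.160). It was above astrocytes by 4.46 ± 0.79 (adjusted p = 0.00789, and 0.0111 with no filter), and at least 12.8-fold above neural stem cells (adjusted p = 0.00489, and 0.00707 with no filter; bound 10.73 to 15.9 with 1 array left out); both calls were kept without each array. The mean of 8 endothelium genes was -0.09 to 0.68 in tissue and -4.42 to -0.83 on the 6 cell arrays, and 4 of them were higher in tissue than in glioma cells (7.82% of all genes; 2 to 5 with 1 array left out), 5 than in neural stem cells (8.08%; 2 to 6) and 2 than in astrocytes (10.6%; 1 to 4). Only 5 of the 8 passed the filter without tissue. The part of vessel cells in the Foxq1 values was not tested.

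FOXD1 is known as a factor of renal stroma and FOXD2 as a related factor of mesenchyme. Foxd1 (chr13:99126452-99126511) read 0.02 and 0.48 in glioma cells and -4.64 and 2.23 in astrocytes. Tissue, at -5.23, -6.48 and -6.38, and neural stem cells, at -5.45 and -4.92, were not well above background. Foxd1 was detected on every glioma cell array and on no tissue array. Tissue was at least 57.7-fold below glioma cells (adjusted p = 0.0402; bound 48.3 to 67.6 with 1 array left out). Removing any array other than the 2 astrocyte arrays ended this call (adjusted p up to 0.147). Glioma cells lay at least 43.3-fold above neural stem cells without a call (adjusted p = 0.340).
Foxd2 read 1.32 and -0.64 in glioma cells, -2.48 and 1.79 in astrocytes, -4.09, -0.91 and -4.48 in tissue and, undetected, -5.57 and -5.04 in neural stem cells. No comparison of Foxd2 was called. The antisense-named neighbour Foxd2os read 1.11 and -0.29 in glioma cells and -3.26 and -0.32 in astrocytes. In tissue it read -4.88, -2.24 and, undetected, -5.65. In neural stem cells it read -7.65, undetected, and -4.76. Within astrocytes and within tissue its highest array was that of Foxd2. Foxd3, the neural crest and pluripotency factor, was detected on all 3 tissue arrays (-4.65, -2.85 and -2.91) and on glioma 2 (-2.82). It was not detected on glioma 1 (-7.49), in astrocytes (-6.20 and -7.80) or in neural stem cells (-7.82 and -7.24), and no comparison was called. Of 11 other neural crest genes, 1 rose and 4 fell in glioma cells against astrocytes (9.10% and 9.92% of all genes; median -2.55; lower 2 to 4 with 1 array left out). In tissue against astrocytes 1 rose and 6 fell (10.6% and 12.4% of all genes; median -2.90; lower 3 to 6). The gene that rose in both was Sox10, also an oligodendrocyte lineage gene, at 5.51 to 5.86 in tissue, 6.55 and 6.14 in glioma cells and -3.18 and -3.71 in astrocytes. Pax3 was at least 139-fold lower in tissue than in astrocytes (adjusted p = 0.00183).

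**Figure D3:**
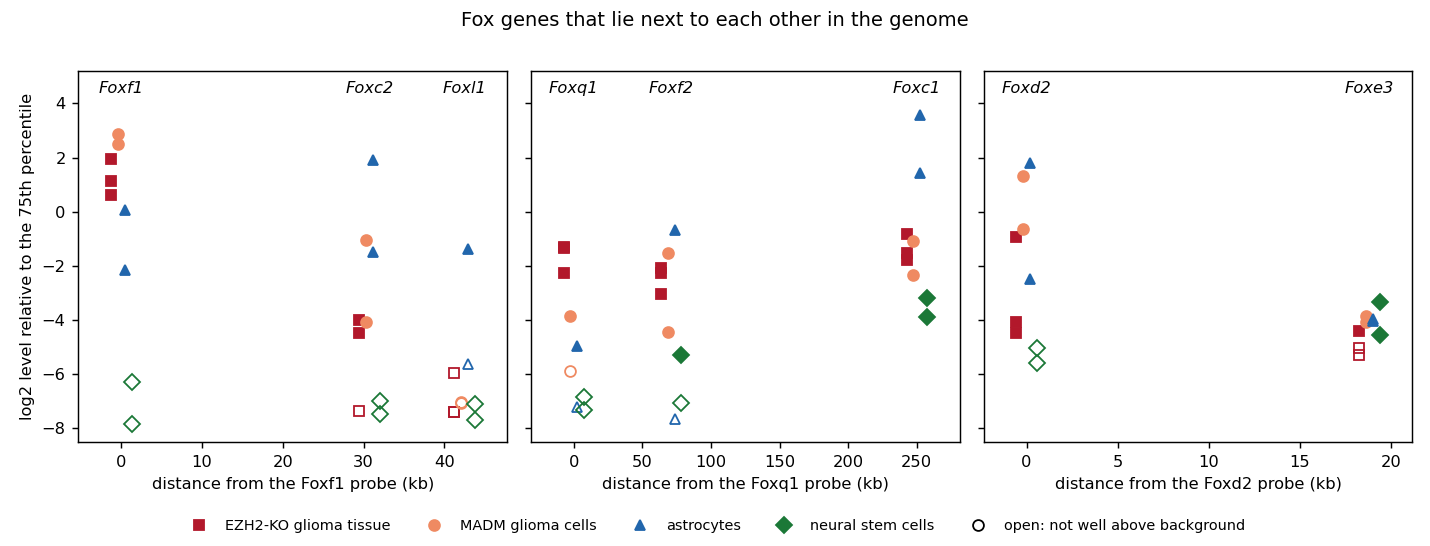
Level of each member of 3 groups of neighbouring Fox genes (y axis, log2 relative to the array's 75th percentile) against the distance of its probe from the first probe (x axis, kb); 1 point per array, moved slightly sideways by group, open where not well above background. On the left Foxf1 is high in tissue and glioma cells while Foxl1, at the far end, is detected only on 1 astrocyte array, and in the middle the Foxq1 and Foxc1 ends are led by different groups.

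Several of these genes are neighbours, so their values share a region. On mm9, the probe of Foxc2 starts 30.7 kb from that of Foxf1, and that of Foxl1 a further 11.7 kb on. On chromosome 13, Foxq1 and Foxf2 are 70.9 kb apart and Foxf2 and Foxc1 179.3 kb. Foxd2 and Foxe3 on chromosome 4 are 18.8 kb apart. Neighbours did not follow 1 order of groups, although neural stem cells had the lowest mean for each of them except Foxe3. Foxf1, Foxc2, Foxl1, Foxq1 and Foxd2 were not well above background there. Foxf1 was highest in glioma cells. Foxc2 had its highest mean in astrocytes, with overlap between astrocytes and glioma cells, and Foxl1 was detected on astrocyte 2 alone (-1.37). Foxq1 was highest in tissue and Foxc1 in astrocytes. Foxe3, a lens factor, read -3.83 and -4.06 in glioma cells, -3.95 and -4.03 in astrocytes, -4.54 and -3.33 in neural stem cells and -5.03, -5.29 and -4.40 in tissue, where only the last was detected. It was not called.

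FOXA1 and FOXA2 are pioneer factors of endoderm and of the floor plate and midbrain. Foxa1 (chr12:58641764-58641823) read 1.79 and -2.64 in glioma cells, -1.01 and 2.60 in astrocytes, and -3.70 and -2.51 in neural stem cells. The 3 tissue arrays read -7.57, -7.43 and -7.75 and were not well above background. All 6 cell arrays lay above all 3 tissue arrays, and the replicates of glioma cells and of astrocytes differed by over 3 log2 units. Tissue was at least 45.3-fold below glioma cells (adjusted p = 0.0141; bound 9.75 to 211 with 1 array left out), a call lost without glioma 1 (adjusted p = 0.0644). It was at least 106-fold below astrocytes (adjusted p = 0.00629; bound 30.2 to 369 with 1 array left out), a call kept without each array.
Foxa2 (chr2:147868669-147868728) read -0.68 and -2.68 in glioma cells, -0.66 and 1.30 in astrocytes and, undetected, -7.76 and, detected, -4.46 in neural stem cells. Tissue was undetected, at -7.34, -5.56 and -6.35. Tissue was at least 19.0-fold below glioma cells (adjusted p = 0.0283; bound 9.47 to 38.0 with 1 array left out), lost without tissue 1, tissue 3 or glioma 1 (adjusted p up to 0.161). Against astrocytes it was at least 76.1-fold lower (adjusted p = 0.00633; bound 38.6 to 150.2), kept without each array. In neural stem cells against astrocytes it fell by 6.43 ± 1.35 (log2, SE; adjusted p = 0.0377), a call lost without any one of the 6 arrays (adjusted p up to 0.146).
Of 10 other floor plate and midbrain genes, 1 fell in tissue against glioma cells (9.11% of all genes), and 1 rose and 4 fell against astrocytes (10.6% and 12.4% of all genes; median -0.81; lower 1 to 4 with 1 array left out). The single gene that fell against glioma cells was En2, a midbrain-hindbrain homeobox gene, at -0.52, -0.51 and -1.02 in tissue against 2.08 and 2.47 in glioma cells (-2.96 ± 0.42, log2, SE; adjusted p = 0.00405). Shh, the secreted floor plate signal, read -3.43 on astrocyte 1, higher on astrocyte 2, and -4.86, -7.26 and -6.40 in tissue, with 1 of the 3 tissue arrays well above background, so its difference of -3.96 ± 0.89 rests in part on signals near background (adjusted p = 0.0182; lost without tissue 3 or astrocyte 2, adjusted p up to 0.103). Nkx2-2, a ventral and oligodendrocyte lineage factor, rose by 3.38 ± 0.50 in the same comparison (adjusted p = 0.00433) and by 3.69 ± 0.64 in glioma cells against astrocytes (adjusted p = 0.0201; lost without either array of either group, adjusted p up to 0.0920).

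Foxb1, a factor of the diencephalon and spinal cord, separated the groups with little spread. It read -2.25 and -2.75 in astrocytes and -2.43 and -2.55 in neural stem cells (chr9:69605559-69605618). Glioma cells, at -7.18 and -6.91, and tissue, at -7.19, -7.14 and -7.33, were not well above background. Foxb1 was thus detected in both normal groups and in neither tumour group. Glioma cells were at least 7.14-fold below astrocytes (adjusted p = 0.00273; bound 6.02 to 8.47 with 1 array left out), kept without each array. They were at least 7.18-fold below neural stem cells (adjusted p = 0.0140; bound 6.89 to 7.49), a call lost without any array except glioma 2 (adjusted p up to 0.105). Tissue was at least 10.8-fold below neural stem cells (adjusted p = 0.000305) and at least 10.75-fold below astrocytes (adjusted p = 0.000275), both kept without each array. These bounds hold for the main processing only. Over the other ways of processing, the smallest log2 differences of glioma cells were -1.10 from astrocytes and -1.21 from neural stem cells. Those of tissue were -1.36 and -1.47.

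FOXJ1 is the master regulator of motile cilia and is found in ependymal cells. Foxj1 (chr11:116192214-116192273) read 4.36 and 3.78 in astrocytes, -0.66 and -0.86 in neural stem cells, -2.93 and -1.43 in glioma cells, and -2.72, -0.89 and -1.73 in tissue. The astrocyte arrays stood over 4 log2 units above every other array. Against astrocytes it fell by 6.25 ± 0.56 in glioma cells (log2, SE; adjusted p = 0.00392), fell by 4.83 ± 0.56 in neural stem cells (adjusted p = 0.00931), and fell by 5.85 ± 0.61 in tissue (adjusted p = 0.00138). The first and the last call were kept without each array, and the second was lost on leaving out neural stem cells 2 (adjusted p = 0.0572). These comparisons share the 2 astrocyte arrays.
The 22 motile cilium genes listed for FOXJ1 had a mean of 0.88 and 0.15 in astrocytes and -3.42 to -2.14 on the other 7 arrays. Of them, 14 were lower in glioma cells (9.92% of all genes; median -3.99; 11 to 15 with 1 array left out) and 14 in neural stem cells (7.89%; median -3.28; 6 to 13) than in astrocytes. In tissue 18 were lower (12.4% of all genes; median -3.17; 9 to 19), and none was higher in any of the 3. The ciliary gene Dynlrb2, a dynein light chain, read 4.82 and 3.58 in astrocytes and -4.61 and -3.02 in glioma cells (-8.02 ± 0.92, adjusted p = 0.00728). Rsph1, a radial spoke protein, read 3.58 and 2.81 in astrocytes, -4.24 and -4.51 in neural stem cells and -3.95 to -1.83 in tissue (-7.57 ± 0.45, adjusted p = 0.00422, and -6.01 ± 0.61, adjusted p = 0.00129). Each of these calls was kept without each array. The mean of 7 ependymal markers was 2.83 and 0.98 in astrocytes and -4.04 to -0.45 elsewhere. These markers include Dynlrb2, so they are not separate from the cilium list. The part of ependymal cells in the astrocyte values was not tested. Tissue against glioma cells gave 5 higher of the 22 (7.82% of all genes; 0 to 5 with 1 array left out), the 2 largest being Ccdc113 and Tppp3, and tissue against neural stem cells gave 2 higher and 1 lower (8.08% and 9.89% of all genes). Tppp3 rose by 3.64 ± 0.62 against glioma cells (adjusted p = 0.00857; lost without glioma 1, adjusted p = 0.0535).

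**Figure D4:**
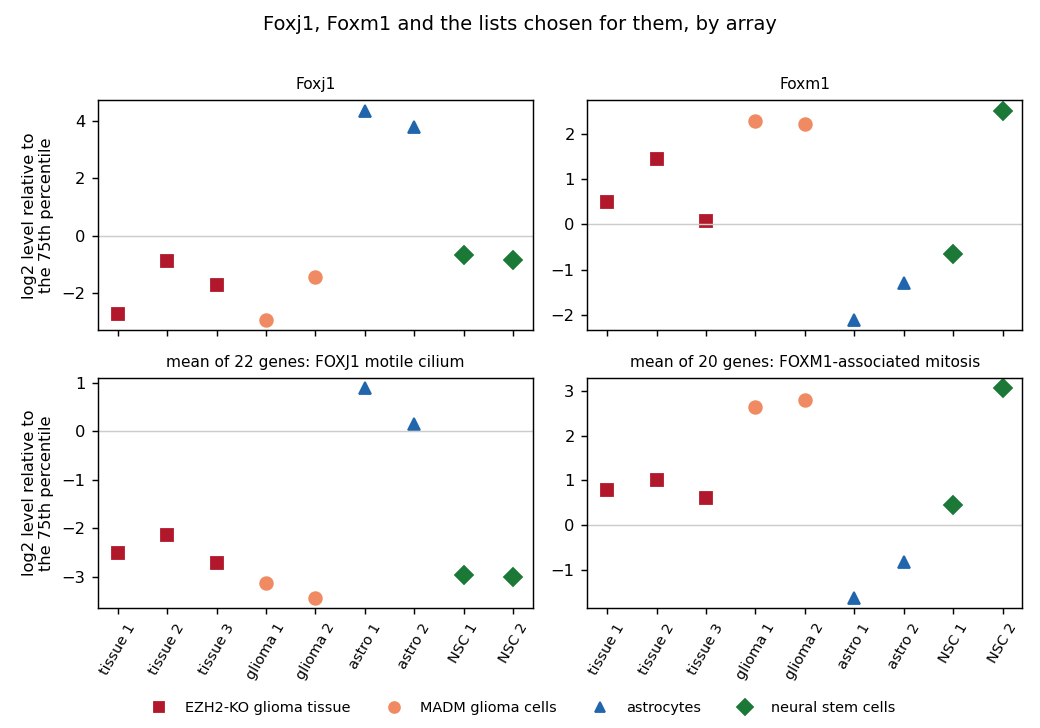
Level of Foxj1 and Foxm1 (top row) and the mean level of the genes listed with each (bottom row) on each of the 9 arrays, in log2 relative to the array's 75th percentile (y axis). In the left column both astrocyte arrays stand above the other 7, and in the right column neural stem cell array 1 stands below array 2 for Foxm1 (-0.66 and 2.51) and for its list (0.45 and 3.05).

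FOXM1 activates the genes of G2 and mitosis in dividing cells. Foxm1 (chr6:128324783-128324842) read 2.27 and 2.22 in glioma cells, 0.49, 1.44 and 0.06 in tissue, and -2.11 and -1.30 in astrocytes. The neural stem cell arrays read -0.66 and 2.51 and so spanned the range of the tumour groups. Foxm1 was called in no comparison as processed here. The difference of glioma cells from astrocytes was 3.95 (log2, adjusted p = 0.0543), that of tissue from astrocytes 2.37 (adjusted p = 0.0847) and that of tissue from glioma cells -1.59 (adjusted p = 0.233). Without either neural stem cell array, which left only 1 array of that wide group, the first 2 differences passed the call (smallest adjusted p 0.0115 and 0.0154). The first also passed with normexp (adjusted p = 0.0454), with unscaled values (0.0494) and when all 9 arrays were fitted (0.0220), and the second when only those 5 arrays were fitted (0.0242). The difference of neural stem cells from astrocytes was 2.63 (adjusted p = 0.139) and passed without neural stem cells 1 (0.0260).
The 20 mitosis genes listed with FOXM1 had a mean of 2.64 and 2.80 in glioma cells, 0.60 to 1.02 in tissue, -1.62 and -0.82 in astrocytes, and 0.45 and 3.05 in neural stem cells. In glioma cells against astrocytes 14 of 20 were higher (9.10% of all genes; median 4.35), a count that ran from 1 to 19 with 1 array left out. In neural stem cells against astrocytes 5 were higher (6.80% of all genes; 0 to 19), and in tissue against astrocytes 6 (10.6%; 1 to 13). Tissue against glioma cells gave 4 lower (9.11%; 0 to 13) and tissue against neural stem cells 1 lower (9.89%; 0 to 12). Ccnb1 (cyclin B1) rose by 5.22 ± 1.04 (log2, SE; adjusted p = 0.0286) and Top2a (topoisomerase II) by 5.11 ± 1.12 (adjusted p = 0.0360) in glioma cells against astrocytes. Both calls were lost without either array of either group (adjusted p up to 0.120 and 0.143). In tissue against glioma cells Aurkb, a mitotic kinase, was at least 3.89-fold lower (adjusted p = 0.0197; lost without any tissue or glioma array, adjusted p up to 0.0973). Skp2, a ubiquitin ligase subunit, fell by 2.41 ± 0.45 (adjusted p = 0.0126; lost without glioma 1, adjusted p = 0.0811).

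FOXO factors are held out of the nucleus by growth factor signalling and induce cell cycle arrest and stress resistance genes. Foxo1 (chr3:52150183-52150242) read 3.65 and 3.27 in astrocytes, 0.93 and 2.16 in glioma cells, 0.70, 1.84 and 1.60 in tissue, and 0.40 and 0.58 in neural stem cells. Astrocytes were highest without overlap, and tissue overlapped glioma cells. Against astrocytes it fell by 1.92 ± 0.47 in glioma cells (log2, SE; adjusted p = 0.0470), a call lost without any array except glioma 2 (adjusted p up to 0.174). It fell by 2.97 ± 0.47 in neural stem cells (adjusted p = 0.0190; lost without either array of either group, adjusted p up to 0.0849) and fell by 2.08 ± 0.47 in tissue (adjusted p = 0.0180; lost without either astrocyte array, adjusted p up to 0.0980). A second Foxo1 probe gave the same direction in each of these comparisons.
Foxo6, a FOXO expressed mainly in brain, ran the other way (chr4:119939688-119939747). It read -0.40 and -0.05 in astrocytes, 1.55 and 0.66 in glioma cells, 2.52, 1.39 and 2.57 in tissue, and 1.90 and 2.53 in neural stem cells. Neural stem cells were above astrocytes by 2.44 ± 0.43 (adjusted p = 0.0253; lost without either array of either group, adjusted p up to 0.105) and tissue by 2.38 ± 0.46 (adjusted p = 0.0111; lost without astrocyte 1, adjusted p = 0.0669). Foxo3 read -3.22, 0.68 and -2.74 in tissue, -0.98 and -2.94 in glioma cells, -2.35 and -1.67 in astrocytes and -2.77 and -2.29 in neural stem cells, and its 2 probes differed in sign in 4 of the 6 comparisons. Foxo4 read -4.04, -5.05 and -3.97 in tissue, the second not detected, -4.16 and -4.25 in glioma cells, -4.65 and -5.15 in astrocytes and -4.32 and -4.57 in neural stem cells. Neither was called.
Of the 22 FOXO pathway genes and targets, 1 was higher and 1 lower in glioma cells than in astrocytes, where 19.0% of all genes were called (median -0.21 against 0.15 over all genes). In tissue against astrocytes again 1 was higher and 1 lower, with 23.0% of all genes called (median -0.60; lower 0 to 4 with 1 array left out). In tissue against neural stem cells, with 18.0% of all genes called, only Pik3ca fell (-1.01 ± 0.27, adjusted p = 0.0403; lost without any array except tissue 3, adjusted p up to 0.142), and no member was called in the 3 other comparisons.

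Among the K, N and P subfamilies, Foxk2, a regulator of metabolic and autophagy genes, read 3.24 and 3.47 in glioma cells, 2.79 and 3.44 in neural stem cells, 2.09, 2.31 and 2.43 in tissue, and 1.72 and 1.33 in astrocytes (chr11:121171126-121171185). It was above astrocytes by 1.82 ± 0.35 in glioma cells (log2, SE; adjusted p = 0.0254; lost without either array of either group, adjusted p up to 0.112). In neural stem cells it was above them by 1.59 ± 0.35 (adjusted p = 0.0418; lost without any one of the 6 arrays, adjusted p up to 0.157). In tissue against glioma cells it fell by 1.07 ± 0.29 (adjusted p = 0.0428), a call lost without any tissue, glioma or astrocyte array (adjusted p up to 0.187).
Foxn2, a forkhead factor of the checkpoint-suppressor group, read 0.46 and 0.94 in glioma cells, 0.00 and 0.16 in neural stem cells, -0.67, -0.44 and 0.18 in tissue, and -1.72 and -1.36 in astrocytes. Astrocytes were lowest without overlap. Glioma cells were above them by 2.24 ± 0.31 (adjusted p = 0.0112; lost without glioma 2 or astrocyte 1, adjusted p up to 0.0581). Neural stem cells were above them by 1.62 ± 0.31 (adjusted p = 0.0311; lost without any one of the 6 arrays, adjusted p up to 0.121). Tissue was above them by 1.23 ± 0.33 (adjusted p = 0.0326; lost without tissue 2, tissue 3 or either astrocyte array, adjusted p up to 0.164).
Foxp4, a repressor known in lung and neural development, read 3.74 and 3.12 in glioma cells, 1.88, 2.55 and 1.90 in tissue, 2.31 and 3.09 in astrocytes, and 2.09 and 1.90 in neural stem cells. In tissue against glioma cells it fell by 1.32 ± 0.36 (adjusted p = 0.0451; lost without tissue 1, tissue 3 or any array of glioma cells or neural stem cells, adjusted p up to 0.238), and all 3 of its probes fell. Foxp1 read 3.11 and 2.26 in glioma cells, 2.25, 2.15 and 1.62 in tissue, 2.54 and 3.91 in astrocytes and 1.55 and 1.78 in neural stem cells. Its 4 tested probes differed in sign in 3 comparisons, and it was not called. Foxp2, the factor linked to speech circuits, read -3.55, -4.12 and -2.95 in tissue and -3.25 and -3.91 in glioma cells. It was detected on 1 of 2 arrays of astrocytes (-2.87, with -7.49 undetected) and of neural stem cells (-4.20, with -4.92 undetected), and was not called.
Of 9 corepressors and partners of FOXP proteins, 3 were lower in tissue than in neural stem cells, against 9.89% of all genes (3 with each array left out). Among them Tle4, a Groucho corepressor, read -2.23, -2.64 and -2.08 in tissue, -2.06 and -2.30 in glioma cells, -2.82 and -2.80 in astrocytes, and 0.61 and 0.33 in neural stem cells. It fell by 2.78 ± 0.26 in tissue (log2, SE; adjusted p = 0.00111) and by 2.65 ± 0.27 in glioma cells (adjusted p = 0.0320; lost without any one of the 6 arrays, adjusted p up to 0.123) against neural stem cells. Ctbp2 was the single member lower in tissue than in glioma cells (-1.22 ± 0.26, adjusted p = 0.0203; lost without tissue 2, tissue 3 or either glioma array, adjusted p up to 0.130).
Foxj3 read 3.37, 3.51 and 3.56 in tissue, 3.91 and 3.74 in glioma cells, 3.58 and 3.44 in astrocytes and 3.42 and 3.56 in neural stem cells. Foxk1, the closest relative of Foxk2, read 0.03, 0.42 and 1.05 in tissue, 1.09 and 1.05 in glioma cells, 0.73 and 0.85 in astrocytes and 0.85 and 0.38 in neural stem cells. Foxn3, a checkpoint suppressor, read -0.36, 0.47 and 0.29 in tissue, 1.14 and 0.85 in glioma cells, -0.05 and 0.18 in astrocytes and 1.65 and 0.96 in neural stem cells. For Foxn3 both arrays of glioma cells and of neural stem cells lay above the other 5. Foxj2 read -4.05, -4.36 and -4.02 in tissue, -4.55 and -4.90 in glioma cells, -4.65 and -4.21 in astrocytes and -4.38 and -3.90 in neural stem cells. Foxl2, the ovarian factor, read 5.46, 5.31 and 5.21 in tissue, 5.08 and 5.81 in glioma cells, 5.56 and 5.39 in astrocytes and 4.76 and 5.31 in neural stem cells. These 5 genes were detected on all 9 arrays and called in no comparison. The brightest Foxl2 probe and its second tested probe differed in sign in 3 comparisons. In all, 16 of the 72 gene-comparison pairs with several tested probes held both signs, on Foxa2, Foxl2, Foxn2, Foxo3, Foxo4, Foxo6, Foxp1, Foxp2 and Foxp4, and none of these 16 was a call.

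The remaining members are known mainly from other tissues. Foxh1, a partner of SMAD proteins in nodal signalling, read -4.39, -4.69 and -4.84 in tissue, -3.95 and -3.13 in neural stem cells, -3.75 and -3.62 in glioma cells and -4.03 on both astrocyte arrays. In tissue against neural stem cells it fell by 1.11 ± 0.31 (log2, SE; adjusted p = 0.0434), a call lost without any array except neural stem cells 1 (adjusted p up to 0.228). Foxr2, a factor activated in some brain tumours, read -4.20, -3.10 and -3.46 in tissue, -5.05 and -4.49 in neural stem cells, and -5.30, undetected, and -3.84 in glioma cells. Both astrocyte arrays, at -5.93 and -5.99, were not well above background. Tissue was at least 4.0-fold above astrocytes (adjusted p = 0.0147), with a bound of 3.38 to 4.95 with 1 array left out. That call was lost without either astrocyte array. The log2 difference was 0.73 to 2.48 over the other ways of processing, so the bound holds for the main processing only.
Foxs1, known in sensory neurons and pericytes, read -1.69, -1.48 and -2.54 in tissue, -2.20 and -3.11 in glioma cells, -1.84 and -1.76 in astrocytes and -2.09 and -2.73 in neural stem cells. Foxd4 read -4.58, -4.52 and -4.36 in tissue, -4.12 and -4.16 in glioma cells, -5.29 and -5.06 in astrocytes and -4.49 and -4.36 in neural stem cells. Its astrocyte arrays lay below the other 7. Foxi1, a factor of ionocytes and the inner ear, read -3.19, -4.01 and -2.34 in tissue, -4.32 and -4.66 in glioma cells, -4.12 and -4.21 in astrocytes and -4.31 and -3.70 in neural stem cells. Foxi3, a factor of ectodermal organs, read -4.25, -4.38 and -4.89 in tissue, -3.50 and -4.30 in glioma cells, -4.26 and -4.61 in astrocytes and -4.77 and -3.72 in neural stem cells, and its 4 groups overlapped. Foxr1 read -4.74, -4.62 and -3.33 in tissue, -4.30 and, undetected, -5.30 in glioma cells, -5.04 and -4.91 in astrocytes and -4.30 and -3.68 in neural stem cells. None of these 5 genes was called. Foxp3, the factor of regulatory T cells, was detected on both glioma arrays (-3.53 and -4.40), both neural stem cell arrays (-3.78 and -3.25), 1 of 3 tissue arrays (-3.97, with -5.38 and -5.56 undetected) and 1 of 2 astrocyte arrays (-4.75, with -5.72 undetected). It was not called. Only 4 of 9 T lymphocyte markers were tested, and their mean was -0.65 to 0.14 in tissue, -0.07 and -0.01 in astrocytes and -1.40 to -1.25 in glioma and neural stem cells. The members did not share 1 pattern. Cd3e read 0.56 to 1.22 in tissue and -0.42 to 0.46 on the cell arrays. Cd4 read 0.26 to 1.04 in tissue and 0.81 to 1.23 on the cell arrays. The lowest member of each array read -2.55 to -0.92 in tissue and astrocytes and -5.04 to -4.49 in glioma and neural stem cells.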

How the data were processed

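Total RNA of 9 samples was labelled with Cy3 and hybridised to single-colour Agilent SurePrint mouse arrays, per the labels' protocols. The authors deposited scanner output with a processed intensity per spot, made with Agilent Feature Extraction, whose version is 10.7.3.1 on the 3 tissue arrays and 10.7.1.1 on the 6 cell arrays per the file headers; the submitters' processing notes name 10.7.3.1. They also deposited a table of log2 values, of which 99.2% to 100% per array lay within 0.01 of the log2 processed intensity; its column medians were 5.08 to 6.28, so it was neither scaled nor centred.

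Here log2 processed intensity minus the array's 75th percentile over 55666 probes was used. The probes came from 59305 spots per array that are not controls, after leaving out 96 to 164 outlier spots per array. The 75th percentile lay at an intensity of 415 to 897, and 60.1% to 65.7% of spots were well above background; the number of arrays limits the precision. Spots of a probe were averaged. Probes entered a fit if all arrays of 1 or more of its groups showed them well above background, and a gene took its brightest such probe. limma 3.58.1 in R 4.3.3 (lmFit, eBayes) was fitted with Benjamini-Hochberg adjustment over 24868 genes on the 6 cell arrays for comparisons of cells (3 residual degrees of freedom), and over 25398 genes on all 9 arrays for tissue (5). The procedure was tested on simulated data, in which the compared groups were made equal except for 100 genes changed by each of 2 sizes. It recovered 75% to 94% of changes of 4 log2 units and 1% to 40% of changes of 2, over the 6 comparisons. In most comparisons far more genes were called in the data, which makes the adjustment less strict, so these shares do not carry over to the data. Some genes are not reported here, although counts of genes and calls include them; every other Fox gene is accounted for, with values per array for those called or detected on every array of a group; of the lists of partners, targets and markers up to 2 called members per direction were named where any was called, otherwise the one with the smallest adjusted p. The members and lists were chosen with earlier results of these data known. Alternatives were quantile normalization, normexp (on median signals, offset 50, since the tissue files used here hold no mean signal), the deposited log2 table, no or a stricter filter, probe means, another set of arrays in the fit, the replicate number as a block, and each array left out. Figures were drawn with matplotlib 3.10.9.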

Additional observations from a re-analysis of the deposited data

How the results depend on the processing

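None of the 40 Fox calls changed sign under any alternative run in which the gene was tested. The stricter filter left out Foxq1, so 37 of the 40 were tested there. The number of calls for tissue against glioma cells was 6 and became 3 with no filter on dim probes and 0 with the replicate block, where 10 Fox genes had an unadjusted limma p under 0.05; for tissue against neural stem cells it was 5 and became 3 with the replicate block and 8 when only those 5 arrays were fitted. The cause was not tested. With 1 array left out at a time, the count ran from 3 to 6 for glioma cells against astrocytes, 0 to 1 for glioma cells against neural stem cells (5 to 10 at an unadjusted limma p under 0.05), 0 to 6 for neural stem cells against astrocytes (11 to 17 unadjusted), 1 to 5 for tissue against glioma cells, 3 to 7 for tissue against neural stem cells and 9 to 12 for tissue against astrocytes. The replicate numbers shared by the groups were used as a block, which ended 15 of the 40 calls, among them those of Foxa1, Foxa2, Foxd1, Foxk2, Foxp4 and Foxq1 in tissue against glioma cells, Foxh1 in tissue against neural stem cells, Foxc2, Foxn2 and Foxo6 in tissue against astrocytes, Foxa2, Foxc2 and Foxk2 in neural stem cells against astrocytes and Foxo1 in glioma cells against astrocytes, and which brought Foxm1 past the call in glioma cells against astrocytes (adjusted p = 0.0459); the correlation of deviations of arrays with the same number was -0.16 to 0.12, so the numbers are not taken to pair the samples, and the third tissue array has no partner there. Foxm1, not called in any comparison under the main processing, changed sign for tissue against neural stem cells from -0.26 to 0.25 with unscaled values, 0.040 with the replicate block, 0.040 without tissue 3 and 1.32 without neural stem cells 2 (with 1 array left out, -1.84 to 1.32), and for glioma cells against neural stem cells from 1.32 to -0.26 without neural stem cells 1 (with 1 array left out, -0.26 to 2.91). Leaving the values unscaled moved the median of all genes by -0.44 for glioma cells against astrocytes, -0.41 for neural stem cells against astrocytes, 0.54 for tissue against glioma cells and 0.51 for tissue against neural stem cells. Changes of 2 log2 units were mostly not recovered in simulation, where fewer genes changed than in most comparisons of the data. A gene that is not called here may still differ.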
